A study of Mus musculus with 34 samples.

Results

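Spinal cord of wild-type (WT) mice 7 days after spinal cord injury was compared with that of WT mice after sham surgery, an operation that leaves the cord intact. The comparison holds 8 of the 34 Affymetrix arrays of the study, 4 titled as WT at day 7 and 4 titled as WT at day 0, which are the sham arrays. They were chosen by their titles alone, and no measured value entered the choice. The other 26 arrays are WT cord at days 1 and 3 (5 and 4 arrays) and cord of mice that lack trkB.T1, a truncated form of the neurotrophin receptor encoded by Ntrk2 (knockout, KO), after sham surgery (4 arrays) and at days 1, 3 and 7 (4, 5 and 4 arrays). Both groups compared here are wild type, with no agent or transgene named in the labels. The strain, age and sex of the mice, the segment taken and the level and force of the injury are not given in the sources used here. The labels do not tie arrays to animals, and the p-values measure only how these samples spread, which may be technical.

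An injured spinal cord fills with phagocytes, both resident microglia and macrophages that arrive from the blood. They engulf dead cells and myelin, which is rich in cholesterol, digest it in lysosomes, and export sterol to lipoproteins such as apolipoprotein E. Sterol that builds up in a cell is known to hold back the SREBP transcription factors, which drive cholesterol synthesis, and to activate LXR receptors, which drive sterol export. Around the lesion astrocytes become reactive and fibroblasts lay down matrix, while neurons die or change the genes they use.

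All values are log2 signals of 1 probe set per gene, and all differences are day 7 minus sham on that scale, so that a difference of 1 is a doubling. The value after ± is the standard error (SE) of a difference, or the SD of a level where this is said. The number of arrays, 4 against 4, limits the precision. Signals under log2 4 are treated as not well above background. Folds that start from such a signal are lower bounds, computed with it raised to 4 and written as "at least", and the log2 difference beside them depends on the background. Arrays are listed in the order of their replicate numbers, 1 to 4, which are used only as names. Where RNA of a cell type falls in such bulk tissue, fewer cells, less RNA per cell and a larger share of RNA from other cells cannot be told apart.

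The tissue label was checked against defining genes. On the sham arrays Snap25, a synaptic protein of neurons, read 15.26, 15.31, 15.12 and 15.11, Mbp, the myelin basic protein, 15.77, 15.75, 15.82 and 15.77, and Gfap, the astrocyte filament, 12.07, 11.84, 12.21 and 11.88. Chat and Slc18a3, which define cholinergic motor neurons, reached at most 2.41 and 2.17 on any of the 8 arrays and gave no measure of those cells. Pearson correlations over all tested genes were 0.9836 to 0.9924 among sham arrays, 0.9818 to 0.9927 among day 7 arrays and 0.8932 to 0.9414 between the groups. On the first principal component of all arrays, which held 54.1% of the variance, day 7 replicate 2 stood at -10.2, between the sham arrays (66.0 to 78.5) and the other day 7 arrays (-26.5 to -35.9).

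Markers of another tissue set some arrays apart. The mean signal of 16 skeletal muscle genes was 3.90, 8.59, 3.79 and 7.94 on the sham arrays and 5.83, 5.19, 9.27 and 4.19 at day 7, so that sham replicates 2 and 4 and day 7 replicate 3 were high. Acta1, the actin of skeletal muscle, differed by 0.79 ± 1.73 between the groups, far less than the spread within them. Muscle RNA was not limited to the 8 arrays compared. The list mean ran from 3.50 to 7.54 at WT day 1 and from 6.08 to 8.58 at WT day 3. In KO cord 13 of the 16 genes were lower at day 7 than in KO sham cord, with a median of -4.02. Its part in the comparisons with days 1 and 3 and with KO cord was not tested, and only the 3 high arrays among the 8 were left out. Counts above 2 that move by over 1.5 times without these 3 arrays are given beside the result. Of the counts of 1 or 2 genes, those of lower chemokine, cytokine, lysosome, purinergic and cell cycle inhibitor genes went from 2 to 1, and those of lower interferon, oligodendrocyte precursor, TGF-beta, glucocorticoid-responsive and phagocytosis genes from 1 to 0. The arrays also differed in genes of body position. Of 22 tested Hox genes, which mark the level of the body axis, 4 were higher at day 7, and these were of the caudal groups 9 and 10 (Hoxd10 3.20 ± 1.08, Hoxa10 1.86 ± 0.35, Hoxc10 1.24 ± 0.27 and Hoxd9 0.70 ± 0.26), while 13 were lower. The falls held Hoxb2 (-1.12 ± 0.13), Hoxd3 (-1.13 ± 0.24) and Hoxa7 (-1.15 ± 0.19), and also Hoxc8 (-0.59 ± 0.09), Hoxc9 (-0.66 ± 0.11) and Hoxa9 (-0.34 ± 0.12), so that group 9 moved in both directions. At days 1 and 3, against the same WT sham arrays, 4 and 3 Hox genes were higher and 10 and 14 lower. In KO cord at day 7, against KO sham arrays, 0 were higher and 10 lower. A difference in the cord segment taken and the injury cannot be told apart for genes that vary along the cord.

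Of 11993 genes tested, 3097 (25.8%) were higher and 3991 (33.3%) lower at day 7, together 59.1%, at an adjusted p under 0.05 in limma with Benjamini-Hochberg adjustment. The rises were larger than the falls. At least 2-fold differences were passed by 1285 higher genes (10.7%) and 483 lower genes (4.03%), and at least 4-fold differences by 589 and 13. The median difference over all genes tested was -0.06, with a 5th percentile of -0.95 and a 95th of 1.98. The 4 day 7 and 4 sham arrays did not overlap for 57.5% of the genes, 24.4% with day 7 higher and 33% with day 7 lower. With so many genes passing, the lists below are read by their counts and medians beside these shares.

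**Figure D1:**
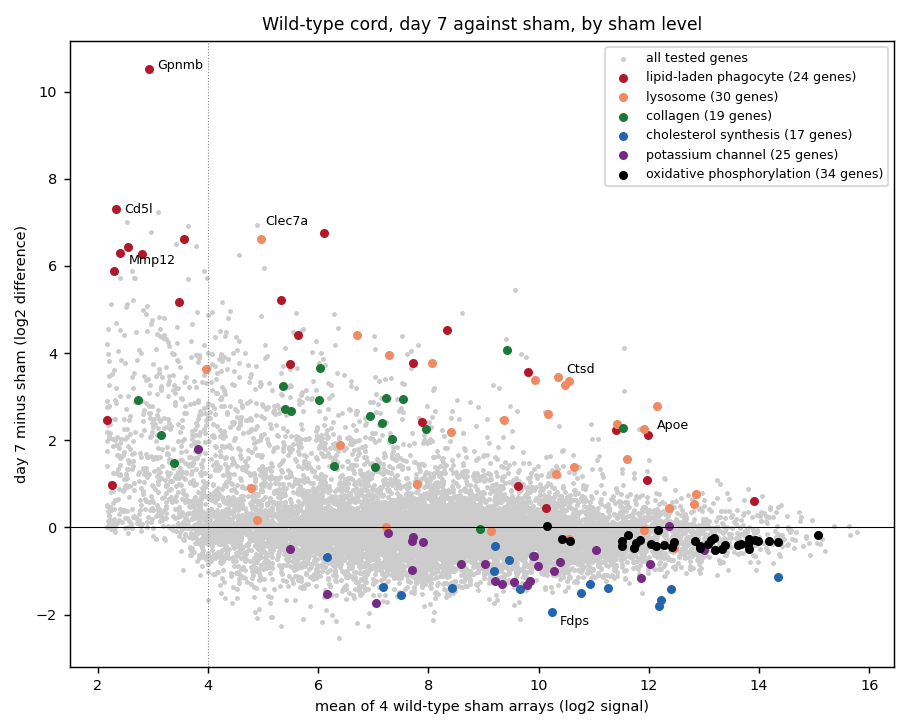
Each point is 1 of 11993 tested genes, with the mean log2 signal of the 4 sham arrays on the x axis and the log2 difference day 7 minus sham on the y axis; coloured points are the members of 6 gene lists and the dotted line marks log2 4. The phagocyte, lysosome and collagen genes lie mostly above 0, all 17 cholesterol synthesis genes lie below it, and the oxidative phosphorylation genes form a band just below 0 at high signal.

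The largest rise was that of Gpnmb, a transmembrane glycoprotein of lysosome-rich phagocytes. It read 2.78, 3.12, 2.47 and 3.34 on the sham arrays and 13.52, 13.36, 13.27 and 13.60 at day 7. The sham values lie at background and the day 7 values close together, so that the difference of 10.51 ± 0.51 means a rise of at least 693-fold (adjusted p = 2.48e-16 in limma). Other large rises were those of surface and secreted proteins of macrophages, a lysosomal transporter and Ctla2b. They were Ms4a7 (6.91 ± 0.40), Ms4a6d (6.5 ± 0.27), Wfdc17 (6.46 ± 0.43), Cd84 (6.25 ± 0.21), Fcgr2b, an inhibitory receptor for antibody (5.96 ± 0.25), Slc15a3, a lysosomal peptide transporter (5.89 ± 0.29), and Ctla2b (5.88 ± 0.27). Cst7, a cystatin that inhibits lysosomal proteases, read 2.92, 3.00, 2.92 and 3.03 in sham cord and 9.78, 9.50, 10.11 and 9.60 at day 7, at least 53.8-fold higher. These genes were picked among those that passed without overlap of the groups. That none had a day 7 array inside the range of the sham arrays follows from this choice.

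Among 24 tested genes of lipid-laden phagocytes all 24 were higher at day 7 with no overlap of the groups, with a median difference of 4.09 against -0.06 for all genes tested (3.98 with values under 4 set to 4). Of the 29 entries of this list 3 were not analysed here and 2 lay under the filter, Pparg (at most 2.45) and Nr1h3, an LXR gene (at most 2.17). Trem2, the lipid-sensing receptor of microglia and macrophages, read 5.01, 5.16, 5.47 and 5.67 in sham cord and 10.52, 10.33, 10.45 and 10.87 at day 7, a 37.1-fold rise (5.21 ± 0.23, adjusted p = 5.20e-17 in limma). Cd5l, a scavenger-type protein of macrophages, read 2.17, 2.61, 2.25 and 2.25 against 9.54, 9.53, 9.70 and 9.73, at least 49.4-fold higher. Both genes were uniformly low in sham cord and uniformly high at day 7.

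Receptors that take up modified lipoproteins were among them. Cd36, a scavenger receptor for oxidised lipid, read 2.56, 4.55, 2.56 and 4.59 in sham cord and 11.25, 9.02, 9.61 and 10.81 at day 7. Sham replicates 2 and 4 were the high ones of their group, yet over 4 log2 units lay between them and the lowest day 7 array, and the rise was at least 59.2-fold (6.61 ± 0.61). Msr1, the macrophage scavenger receptor, rose by 6.26 ± 0.29 and Lgals3, galectin 3, by 6.75 ± 0.31. Ch25h, which makes the oxysterol 25-hydroxycholesterol, rose by 6.44 ± 0.23. Plin2, the coat protein of lipid droplets, rose by 3.77 ± 0.23 and Lpl, lipoprotein lipase, by 4.52 ± 0.34.

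Genes of sterol export rose from levels that were well above background in sham cord. Abca1, the transporter that loads cholesterol onto apolipoproteins, read 9.94, 9.95, 9.82 and 9.52 in sham cord and 13.40, 13.20, 13.35 and 13.50 at day 7, an 11.8-fold rise (3.56 ± 0.15, adjusted p = 1.26e-17 in limma). Apoe, the main apolipoprotein of the nervous system, read 11.92, 11.88, 12.12 and 12.05 against 14.03, 14.07, 14.15 and 14.18, a 4.33-fold rise (2.12 ± 0.16). In both genes the spread within a group was a small part of the difference. Abcg1, a partner of Abca1, rose by 0.95 ± 0.15, the apolipoprotein genes Apoc1 by 4.41 ± 0.62 and Apoc2 by 5.16 ± 0.40, and Npc1 and Npc2, which move cholesterol out of lysosomes, by 0.43 ± 0.11 and 1.10 ± 0.08.

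The lipid-laden phagocyte genes were still rising between days 3 and 7. Of the 24 members 13 were higher at day 7 than at day 3, where 11% of all genes tested were higher, and 2 were lower, Msr1 and Ch25h, where 12% of all were lower. Atp6v0d2, a subunit of the proton pump found in macrophages and osteoclasts, was at background in sham cord (2.23, 2.25, 2.23 and 2.46), averaged 2.36 at day 1 and 3.09 at day 3, and read 8.53, 7.68, 7.93 and 8.58 at day 7. It was thus a transcript of day 7, at least 18.2-fold over sham, and the difference between days 7 and 3 was 5.10 ± 0.35 (adjusted p = 3.47e-11 in limma). Mmp12, the macrophage elastase, had means of 2.40, 2.93, 4.14 and 8.70 in sham cord and at days 1, 3 and 7. Its day 7 arrays spread more widely than those of Atp6v0d2, at 10.01, 7.46, 7.92 and 9.40. Apoe stood at a mean of 12.35 at day 3, little over its sham mean of 11.99, and rose by 1.76 ± 0.16 from day 3 to day 7. Msr1 and Ch25h had reached 9.87 and 9.61 at day 3 and were 0.81 ± 0.29 and 0.63 ± 0.23 lower at day 7 (adjusted p = 0.0456 and 0.0467).

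**Figure D2:**
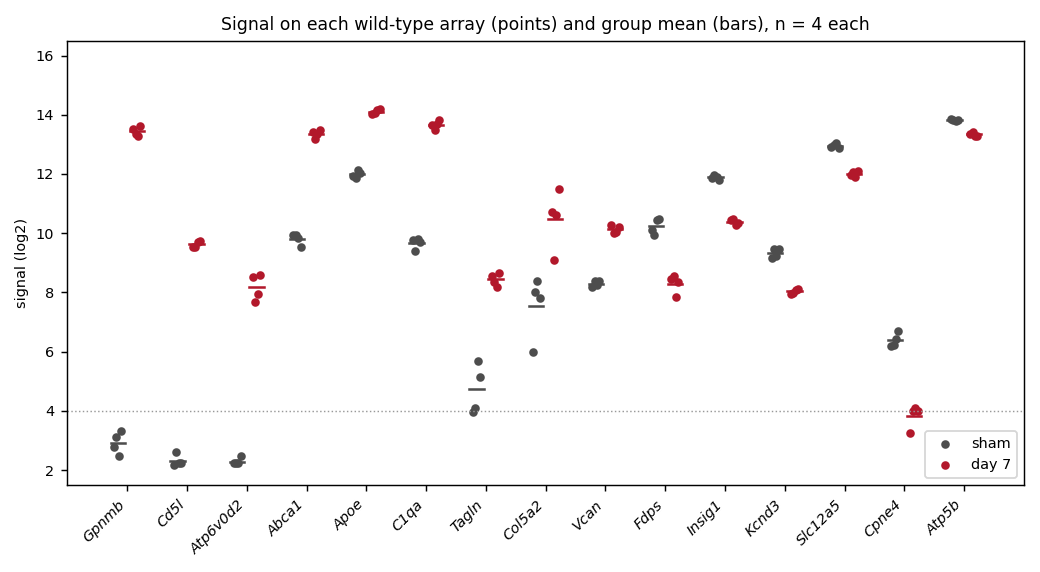
Log2 signal of 15 genes on each of the 4 sham (grey) and 4 day 7 (red) WT arrays, with a bar at the group mean and a dotted line at log2 4. Gpnmb, Cd5l and Atp6v0d2 go from background to high signal, Abca1, Apoe and C1qa rise from signals well above background, Col5a2 spreads most within a group, and Fdps, Insig1, Kcnd3, Slc12a5, Cpne4 and Atp5b fall, in each case with no overlap of the groups.

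Of 30 tested lysosome genes 23 were higher, 2 lower and 5 did not pass, with a median difference of 2.03. Ctsd, cathepsin D, read 10.33, 10.27, 10.41 and 10.39 in sham cord and 13.72, 13.73, 13.77 and 14 at day 7, an 11-fold rise (3.45 ± 0.13). Gusb, beta-glucuronidase, rose 21.5-fold (4.42 ± 0.17), Grn, the lysosomal growth factor progranulin, 9.58-fold (3.26 ± 0.11), and Ctsz, cathepsin Z, by 3.36 ± 0.12. The smaller rises held membrane proteins shared by all lysosomes, Lamp2 (1.57 ± 0.09), Lamp1 (0.55 ± 0.05) and Scarb2 (0.44 ± 0.06), and proteins of the lumen, Lgmn (1.38 ± 0.12), Asah1 (1.23 ± 0.07), Ctsk (1.0 ± 0.39) and Psap (0.77 ± 0.09). Atp6v1a, a subunit of the proton pump that most cells use, fell by 0.47 ± 0.09 and Gaa, acid alpha-glucosidase, by 0.27 ± 0.10, and only 1 of these 2 falls passed without sham replicate 2 or 3 or day 7 replicate 2. Atp6v0d1, the common form of the subunit whose macrophage form Atp6v0d2 rose, differed by -0.07 ± 0.07, Tfeb, the transcription factor of lysosome genes, by 0.18 ± 0.10, the calcium channel gene Mcoln1 by -0.07 ± 0.06, Neu1 by 0.01 ± 0.11 and Ctse by 0.89 ± 0.62. Mcoln3, a relative of Mcoln1, was at background in sham cord (2.17, 2.21, 2.22 and 2.17) and read 6.78, 7.00, 6.48 and 6.77 at day 7, at least 6.75-fold higher. Of the 30 members 20 were higher at day 7 than at day 3.

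Promoters of the lysosome genes were searched for the CLEAR motif, TCACGTGA, to which TFEB and its relatives bind. It was searched on both strands, from 250 bases before to 50 after each start site, in RefSeq sequence of assembly GRCm38.p6. It occurred in 5 of the 26 lysosome genes with such a window (19.2%), in 2.15% of 9674 tested genes with one, and in 0.974% of 32851 windows in all. The letters stood before genes that rose and before genes that did not, as the pieces around 4 of the matches show, with the motif in capitals and each piece written along the strand of its gene. Ctsd lies on the minus strand (chr7:142387899-142387946) and Ctsa, cathepsin A, which holds the motif in duplicate, on the plus strand (chr2:164833740-164833787), and these rose by 3.45 ± 0.13 and 2.47 ± 0.13. Atp6v1a on the minus strand (chr16:44139364-44139411) fell by 0.47 ± 0.09, and Mcoln1 on the plus strand (chr8:3500453-3500500) differed by -0.07 ± 0.06. The other match was that of Atp6v0d1. A match is a description of the sequence and not a measured site.
Ctsd: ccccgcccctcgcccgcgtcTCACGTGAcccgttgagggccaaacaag
Ctsa: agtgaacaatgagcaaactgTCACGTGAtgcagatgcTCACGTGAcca
Atp6v1a: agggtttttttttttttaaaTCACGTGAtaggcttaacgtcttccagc
Mcoln1: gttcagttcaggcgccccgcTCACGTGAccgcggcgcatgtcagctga

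The motif of the related factor MITF, TCATGTGA, stood on the minus strand before Mmp12, whose rise between days 3 and 7 is given above, as its reverse complement in the piece chr9:7347270-7347317 on the plus strand. It occurred in 1 of 16 lipid-laden phagocyte genes with a window (6.25%), 2 of 26 lysosome genes (7.69%) and 0.899% of the tested genes with one. The motif of PU.1, a factor of myeloid cells, searched as GAGGAAGT on both strands, was not found before the 16 activated macrophage genes with a window, and occurred in 1 of 16 lipid-laden phagocyte genes (6.25%), 3 of 26 lysosome genes (11.5%), 2 of 17 SREBP target and transport genes (11.8%) and 3.46% of the tested genes.
Mmp12: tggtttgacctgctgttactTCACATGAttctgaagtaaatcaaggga

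Of 24 tested genes of activated macrophages 23 were higher, with a median difference of 4.25 (3.99 with values under 4 set to 4), and Chil3, a chitinase-like protein of alternatively activated macrophages, differed by 1.02 ± 0.72. Clec7a, the receptor dectin 1, read 4.99, 4.84, 5.25 and 4.52 in sham cord and 11.95, 11.60, 11.80 and 12.03 at day 7, a 123-fold rise. Tyrobp, the adaptor that passes on the signal of Trem2, read 9.44, 9.35, 9.41 and 9.47 against 13.78, 13.57, 13.66 and 13.95, a 20-fold rise (4.32 ± 0.17). The groups were tight and far apart in both. Itgb2, the shared beta chain of leukocyte integrins, rose by 4.93 ± 0.19, and Lyz2, lysozyme, by 5.45 ± 0.33. Arg1, arginase 1, a gene of wound-healing macrophages, went the other way in time. It averaged 11.31 at day 1 and 11.84 at day 3 and read 9.26, 6.53, 7.71 and 7.15 at day 7, still above the sham arrays (2.36 to 3.01) but 4.17 ± 0.44 below day 3 (adjusted p = 8.87e-08 in limma). Cd163, the receptor for haemoglobin, was 1.51 ± 0.54 over sham at day 7 and also below its level at day 3, whereas Itgax, the integrin CD11c, rose by 2.19 ± 0.23 after a difference of 0.03 at day 3.

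Microglia were followed by 14 tested genes that they express at rest, of which 12 were higher at day 7, with a median of 2.15. Cx3cr1, the fractalkine receptor, read 8.50, 8.29, 8.50 and 8.42 in sham cord and 10.99, 11.10, 11.13 and 11.19 at day 7 (2.68 ± 0.20), and Csf1r, the receptor for the growth factor of microglia, rose by 2.03 ± 0.11. Fcrls rose by 4.39 ± 0.22, Aif1, which encodes the protein IBA1, by 3.43 ± 0.21, and P2ry13 by 2.27 ± 0.22. Olfml3 rose by 3.36 ± 0.18 and Gpr34 by 2.64 ± 0.27. Tmem119 rose by 1.92 ± 0.31 and P2ry12 by 0.76 ± 0.32, and Siglech and Sall1 did not pass, at 0.54 ± 0.30 and 0.42 ± 0.22. Of the 14 members 10 were higher at day 7 than at day 3. At day 1 the median of the list was 0.01 over sham and at day 3 it was 1.24.

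In the complement system the genes of the first component rose together. C1qa read 9.78, 9.41, 9.79 and 9.71 in sham cord and 13.65, 13.48, 13.68 and 13.81 at day 7, a 15.8-fold rise (3.98 ± 0.12, adjusted p = 1.66e-20 in limma), and C1qb rose by 3.91 ± 0.13 and C1qc by 4.4 ± 0.13. The receptor gene C3ar1 went from 2.86, 2.96, 3.83 and 2.72 to 10.42, 10.06, 10.16 and 10.69, at least 80.5-fold higher, and C5ar1 rose by 2.78 ± 0.22, which from background means at least 1.98-fold. Serping1, the inhibitor of the first component, rose by 3.54 ± 0.67. Cfp, properdin, a stabiliser of the alternative pathway, fell by 0.75 ± 0.16, and the regulators Cd55 and Cd59a did not pass. In all 11 of 14 tested members were higher, with a median of 2.48 that becomes 0.77 with values under 4 set to 4. Hc, which encodes C5, and C6 of the terminal pathway stayed under the filter, at no more than 2.37 and 2.17 on any of the 8 arrays.

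All 16 tested genes of antigen presentation were higher, with a median of 2.19. Another 3 of the 19 read lay under the filter, Ciita, Cd80 and Cd40, at no more than 2.93 on any of the 8 arrays. B2m, the light chain of class I molecules, read 11.79, 11.93, 11.71 and 11.84 in sham cord and 14.12, 13.97, 14.04 and 14.19 at day 7, a 4.8-fold rise. H2-D1 and H2-K1, class I heavy chains, rose by 2.20 ± 0.14 and 2.17 ± 0.14, Psmb8, a subunit of the immunoproteasome, by 3.27 ± 0.21, and Cd86, a costimulatory ligand, by 4.0 ± 0.19. The class II genes H2-Aa and H2-Eb1 rose by 2.96 ± 0.54 and 3.06 ± 0.48, with larger errors. The H2 genes are close copies of each other, so signal may be shared between their probe sets. Lymphocytes themselves were hardly visible. Of 19 genes of T and B cells read 16 lay under the filter, with Cd3e at no more than 2.17, Cd8a at 3.32, Cd79a at 2.17 and Ms4a1 at 3.25 on any of the 8 arrays. Of the 3 tested, Cd28, a costimulatory receptor of T cells, read 2.17, 2.17, 2.18 and 2.28 in sham cord and 5.86, 5.15, 4.76 and 6.14 at day 7, at least 2.78-fold higher, while Ighm fell by 1.47 ± 0.34 and Thy1, which neurons also express, by 0.50 ± 0.14.

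Of 21 tested chemokines and receptors 16 were higher and 2 lower, with a median of 1.98 (1.51 with values under 4 set to 4). Ccl3 read 2.34, 2.33, 2.56 and 2.34 in sham cord and 8.19, 7.99, 8.08 and 8.24 at day 7, at least 17.4-fold higher, and Cxcl16, a ligand that is also a receptor for phosphatidylserine and oxidised lipid, rose by 3.97 ± 0.34. The early attractants of monocytes and neutrophils had largely gone down again. Ccl2 averaged 9.80 at day 1 and 9.0 at day 3 and read 5.52, 5.72, 5.52 and 5.47 at day 7, which was 3.44 ± 0.32 below day 3 and 2.63 ± 0.32 above sham. Ccl7, with means of 8.75, 7.63 and 4.18 at days 1, 3 and 7, no longer passed against sham (0.65 ± 0.41), and Cxcl2 was back at its sham level (2.33 against 2.18, the background of the array). Cx3cl1, the neuronal fractalkine that Cx3cr1 binds, fell by 0.96 ± 0.23 and Ackr1 by 0.41 ± 0.15. Of the 21 members 13 were lower at day 7 than at day 1, where 22% of all genes tested were lower and 20.6% higher, and 3 were higher.

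Among cytokines and their receptors 18 of 27 tested genes were higher and 2 lower, with a median of 1.62 (0.97 with values under 4 set to 4), and only 1 of the 2 falls passed in 23 of the 34 fits that leave out 1 array, those without day 7 replicate 2, 3 or 4 or sham replicate 3 or 4 among them. The rises held many receptors. Csf2rb, the beta chain of the receptors for GM-CSF, IL-3 and IL-5, rose by 4.49 ± 0.29, Osmr, the oncostatin M receptor, by 4.12 ± 0.23, Tnfrsf1b and Tnfrsf1a, the receptors of TNF, by 3.21 ± 0.23 and 2.23 ± 0.16, and Il6ra by 2.73 ± 0.22. Socs3, which feeds back on signalling through gp130, read 5.02, 5.14, 5.30 and 4.83 in sham cord and 9.03, 8.59, 9.19 and 9.24 at day 7, a 15.3-fold rise, after means of 11.73 and 10.99 at days 1 and 3. The cytokines Il6, Il1b, Il11, Lif and Osm did not pass, and Il6 and Osm differed by 0.01 ± 0.66 and 0.13 ± 0.39. Igf1, a growth factor of phagocytes and muscle, rose by 3.40 ± 0.59, and more than at day 3.

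Of 21 tested interferon-responsive genes 17 were higher and 1 lower (Cmpk2, -0.60 ± 0.19), with a median of 1.82. Irf8, a transcription factor that microglia and macrophages need, read 4.74, 4.68, 4.63 and 4.22 in sham cord and 8.83, 8.66, 8.80 and 9.13 at day 7 (4.29 ± 0.21), and Bst2, tetherin, rose by 3.74 ± 0.34 from sham arrays that spread from 4.67 to 6.74. Gbp2 rose by 2.23 ± 0.34 and Irf9 by 1.52 ± 0.22. All 15 tested Toll-like receptors, adaptors and NADPH oxidase genes were higher, with a median of 3.73, or 2.90 with values under 4 set to 4. Another 4 of the 19 read lay under the filter, Tlr6, Tlr8, Tlr9 and Irak3, at no more than 3.94 on any of the 8 arrays. Tlr7, a sensor of RNA in endosomes, rose by 5.06 ± 0.25 and Tlr13 by 4.66 ± 0.26, and Cyba, the membrane subunit of the oxidase, read 6.0, 6.51, 6.10 and 6.5 against 11.35, 10.80, 11.09 and 11.43, a 29.6-fold rise.

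Genes that handle iron and heme were divided, with 9 of 18 tested higher, 4 lower and 5 that did not pass. Slc11a1, the iron exporter of phagosomes, rose by 4.4 ± 0.27. Hmox1, the heme oxygenase that breaks down heme from red cells, averaged 10.65 at day 1 and 11.60 at day 3 and read 8.12, 7.02, 7.14 and 7.98 at day 7, at least 11.8-fold over sham but 4.03 ± 0.34 below day 3. Steap4, a metalloreductase, rose by 2.59 ± 0.36 and Blvrb, a biliverdin reductase, by 1.10 ± 0.17. Tfrc, the transferrin receptor that takes up iron, fell by 0.74 ± 0.13. Slc48a1, a heme transporter, gave opposite answers by probe set, with -0.54 ± 0.09 for the one used and 0.52 ± 0.17 for another that also passed, so its direction is uncertain.

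The enzymes of cholesterol synthesis fell while the export genes rose. All 17 tested were lower at day 7, with no overlap of the groups in any of them and a median of -1.38 against -0.06 for all genes tested. Fdps, which makes farnesyl pyrophosphate, read 10.10, 9.93, 10.43 and 10.48 in sham cord and 8.44, 8.56, 7.86 and 8.34 at day 7, a 3.83-fold fall (-1.94 ± 0.14, adjusted p = 1.52e-12 in limma). Idi1, the isomerase before it, read 12.09, 11.99, 12.24 and 12.40 against 10.58, 10.69, 10.22 and 10.03, a 3.48-fold fall. Every day 7 array was over 1 log2 unit below every sham array in both. Sqle, the epoxidase that commits squalene to sterol, fell by 1.5 ± 0.13, Fdft1, squalene synthase, by 1.4 ± 0.08 and Msmo1 by 1.67 ± 0.10, and Sc5d differed by -1.31 ± 0.09. The smallest falls were those of Ebp (-0.43 ± 0.09), Hsd17b7 (-0.67 ± 0.12) and Mvk (-0.69 ± 0.20). At day 1 the median of the list was 0.03, and of the 17 members 10 were lower at day 7 than at day 3 and all 17 lower than at day 1.

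The regulators and carriers of sterol moved in both directions, with 10 of 24 tested genes higher, 11 lower and a median of -0.12. The falls held genes that SREBP factors are known to drive. Insig1, the sterol sensor of the endoplasmic reticulum, read 11.87, 11.98, 11.91 and 11.78 in sham cord and 10.44, 10.50, 10.27 and 10.33 at day 7 (-1.5 ± 0.10). Stard4, a cholesterol carrier, fell by 1.67 ± 0.13, and of the genes of fatty acid synthesis Fasn was at -0.50 ± 0.14, Scd1 at -0.53 ± 0.09 and Acaca at -0.21 ± 0.09. The rises held genes that LXR is known to drive. Besides Abca1, Abcg1 and Apoe they were Mylip, a ligase that degrades the LDL receptor, which read 7.56, 7.33, 7.83 and 7.38 against 10.14, 9.70, 9.87 and 10.37 (2.49 ± 0.20), Srebf1 (1.17 ± 0.14) and Lpcat3 (0.98 ± 0.10). Srebf2, the SREBP gene of cholesterol synthesis, fell by 0.58 ± 0.11. Nr1h3, an LXR gene, lay under the filter, at no more than 2.17 on any of the 8 arrays. The activity of SREBP and LXR was not measured, and their groups of target genes are not exclusive. Srebf1 and Mylip were higher at day 7 than at day 3, by 0.93 ± 0.14 and 1.35 ± 0.20. Genes of neurons and, by less, of myelin were also lower at day 7, with medians of -0.87 and -0.26, as described below. Neurons and oligodendrocytes make cholesterol, and the part of these falls in the sterol genes was not tested.

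**Figure D3:**
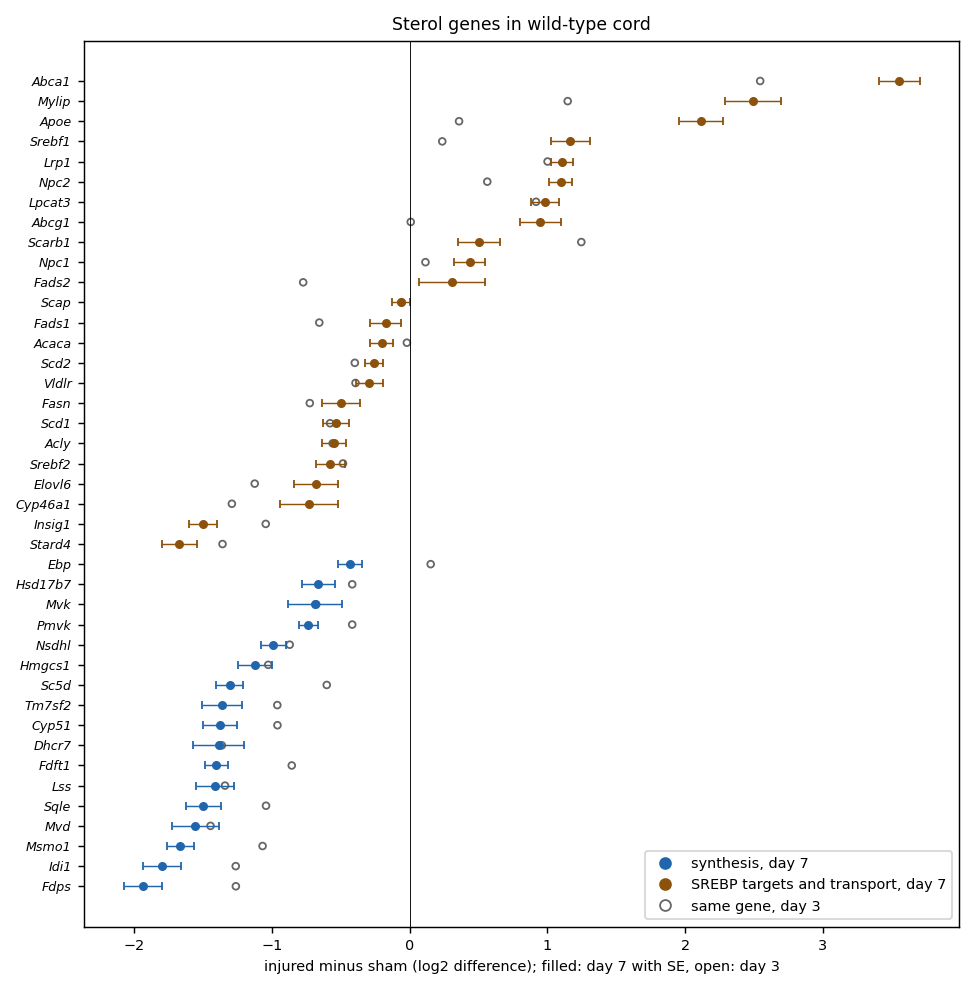
Log2 difference from sham of the 17 cholesterol synthesis genes (blue) and 24 SREBP target and cholesterol transport genes (brown) at day 7 with the SE (filled) and at day 3 (open); both times are set against the same sham arrays. All 17 synthesis genes lie below 0 at day 7, from Ebp (-0.43) to Fdps (-1.94), and Abca1, Mylip and Apoe lie farthest above it.

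A sterol response element, searched as TCACNCCAC on both strands of the same promoter windows, stood before 1 of the 14 cholesterol synthesis genes with a window (7.14%), against 1.34% of the tested genes with one. It stood before 1 of 26 lysosome genes (3.85%) and was not found before the 17 genes with a window of the SREBP target and cholesterol transport list. The cholesterol synthesis gene was Hmgcs1, HMG-CoA synthase, which fell by 1.13 ± 0.12. The piece lies on the plus strand at chr13:119690194-119690242, with the motif in capitals, and no match elsewhere says only that these letters are not in that window.
Hmgcs1: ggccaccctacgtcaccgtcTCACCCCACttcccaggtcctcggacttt

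Matrix genes rose with a wide spread between arrays. Of 19 tested collagen genes 18 were higher, with a median of 2.56 (2.39 with values under 4 set to 4), but the groups overlapped for 4 of the 19, and the mean of the list was 9.18, 7.81, 9.10 and 9.89 at day 7 against 5.67, 6.73, 7.26 and 6.64 in sham cord. Day 7 replicate 2 was the lowest of its group, as on the first principal component. Col5a2, a fibrillar collagen, read 6.01, 8.0, 8.38 and 7.80 in sham cord and 10.72, 9.10, 10.63 and 11.51 at day 7, a 7.69-fold rise (2.94 ± 0.49). Col1a1, the main collagen of scar, read 4.57, 8.91, 6.96 and 8.46 against 10.30, 9.03, 10.68 and 10.78 (2.97 ± 0.84, adjusted p = 0.00352 in limma), and its sham arrays with muscle RNA, replicates 2 and 4, were the high ones. Col4a5, of basement membranes, had tighter groups, at 6.79, 6.72, 7.27 and 6.94 against 9.79, 8.90, 9.41 and 9.86 (2.56 ± 0.24). Col9a3, a collagen of cartilage, rose by 2.04 ± 0.25 after a difference of 0.13 at day 3, and Col11a1 did not pass.

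Of 25 tested fibroblast and meningeal genes 23 were higher, with a median of 2.35 (1.96 with values under 4 set to 4), and the groups were free of overlap for 15 of the 25. Fn1, fibronectin, read 6.52, 7.69, 10.10 and 8.08 in sham cord and 11.48, 10.28, 11.25 and 12.15 at day 7, with sham replicate 3 just under the lowest day 7 array (3.19 ± 0.51). Tagln, a contractile protein of myofibroblasts and smooth muscle, read 3.95, 4.1, 5.70 and 5.15 against 8.56, 8.36, 8.18 and 8.66, at least 13-fold higher, yet 2.67 ± 0.38 below day 3. Tgfbi, a matrix protein induced by TGF-beta, rose by 2.94 ± 0.36 and Postn, periostin, by 4.49 ± 0.86.

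Proteoglycans and their partners were divided by type. Of 20 tested 12 were higher and 2 lower, with a median of 0.82. Vcan, versican, read 8.18, 8.39, 8.25 and 8.38 in sham cord and 10.27, 9.99, 10.03 and 10.21 at day 7 (1.83 ± 0.13), Cspg4, the proteoglycan NG2, rose by 1.56 ± 0.17, Sdc1, a cell surface heparan sulfate proteoglycan, by 2.77 ± 0.35, and Tnc, tenascin C, by 2.76 ± 0.27. The falls were those of the link proteins of perineuronal nets, Hapln1 (-1.61 ± 0.26) and Hapln4 (-1.35 ± 0.23), with Hapln1 at 8.16, 8.18, 7.93 and 8.23 against 6.73, 6.90, 6.28 and 6.15. Ncan, neurocan, rose by 0.83 ± 0.17, and Bcan, brevican, was at -0.20 ± 0.13.

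Of 25 tested metalloproteinases, their inhibitors and plasminogen activator genes 17 were higher and 1 lower, with a median of 1.29 (1.09 with values under 4 set to 4). Timp1, an inhibitor made by reactive astrocytes, read 2.29, 2.43, 3.61 and 2.29 in sham cord and 8.24, 8.29, 8.49 and 8.53 at day 7, at least 20.9-fold higher, although it was lower than at day 3 (-2.16 ± 0.25). Plau, urokinase, was by contrast highest at day 7, at 6.08, 5.32, 5.71 and 5.99 after means of 2.85 and 4.21 at days 1 and 3. Adam8 rose by 5.09 ± 0.29 and Adam17, the sheddase of TNF, by 1.57 ± 0.14. Mmp9 (-0.12 ± 0.46) and Mmp3 (0.42 ± 0.44) did not pass.

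Receptors for matrix and for TGF-beta rose as well. Of 16 tested integrin genes 12 were higher, among them Itgb5 (2.49 ± 0.14), Itga6 (1.78 ± 0.12) and Itgb1 (1.65 ± 0.17), and Itgb4 was lower (-0.92 ± 0.14). The median was 1.25, or 0.72 with values under 4 set to 4. Of 28 tested genes of TGF-beta and BMP signalling 15 were higher and 1 lower. Tgfbr1, the type I receptor, read 9.30, 9.35, 9.40 and 9.35 in sham cord and 11.42, 11.31, 11.45 and 11.48 at day 7, a 4.19-fold rise with groups that spread by less than 0.2 (2.07 ± 0.09). Tgfbr2, the type II receptor, rose by 2.67 ± 0.18, Id3, a BMP target, by 1.36 ± 0.16, and Smad3, which carries the signal to the nucleus, by 0.85 ± 0.08. The ligand genes Tgfb2 and Tgfb3 were at 0.57 ± 0.17 and 0.37 ± 0.22, and only Tgfb2 of the pair passed.

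Reactive astrocyte genes were high and already falling. Of 26 tested 23 were higher at day 7, with a median of 2.66 (2.33 with values under 4 set to 4), and 14 were lower at day 7 than at day 3, with 1 higher. Serpina3n, a protease inhibitor of reactive astrocytes, read 6.49, 6.14, 6.38 and 6.42 in sham cord and 10.82, 11.19, 10.96 and 10.72 at day 7, a 23.7-fold rise (4.57 ± 0.14), after means of 12.20 and 11.89 at days 1 and 3. Vim, vimentin, rose by 3.13 ± 0.20 and Hspb1 by 2.87 ± 0.23, and both were lower than at day 3. Gfap kept its level, at 13.50, 13.60, 13.63 and 13.43 (1.54 ± 0.14 over sham), with means of 13.19 and 13.30 at days 1 and 3. Ptx3 rose by 4.37 ± 0.21 and Cd109 by 3.82 ± 0.23. Lcn2, which neutrophils also make, was 1.57 ± 0.57 over sham at day 7 and 4.0 at day 3.

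Genes of resting astrocytes were close to sham levels, with 13 of 20 tested not passing and a median of 0.05. The glutamate transporters Slc1a2 and Slc1a3 differed by -0.09 ± 0.14 and 0.00 ± 0.15, and Glul, glutamine synthetase, by -0.07 ± 0.06. Aqp4, the water channel, read 14.12, 14.03, 14.11 and 13.95 in sham cord and 14.74, 14.77, 14.85 and 14.75 at day 7 (0.72 ± 0.19), after means of 13.63 and 14.07 at days 1 and 3. Sox9 rose by 0.74 ± 0.10 and Aldh1l1 by 0.57 ± 0.12, and the GABA transporter Slc6a11 fell by 1.04 ± 0.25. Of the 5 rises 3 passed without sham replicate 2, an array with muscle RNA, and 3 without all such arrays.

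Myelin genes fell little. Of 19 tested 9 were lower and 10 did not pass, with a median of -0.26, or -0.17 without day 7 replicate 4. Fa2h, which makes the hydroxylated fatty acids of myelin lipid, read 10.16, 10.18, 10.25 and 10.40 in sham cord and 9.31, 9.52, 9.16 and 9.03 at day 7, a 1.99-fold fall, and Opalin fell by 0.72 ± 0.13 and Mog by 0.59 ± 0.13. Mbp read 15.70, 15.68, 15.65 and 15.63 at day 7, only 0.11 ± 0.04 under sham at a signal near the top of the scale. Of 7 other probe sets of Mbp 4 were lower, by 0.62 ± 0.09 at most, and 3 did not pass. Cnp, Tspan2 and Sox10 did not pass. Of 15 tested precursor genes 9 were higher and 1 lower, and 5 rises passed without the 3 arrays with muscle RNA. Cnksr3 read 7.43, 7.40, 7.58 and 7.69 in sham cord and 9.01, 8.94, 9.08 and 8.72 at day 7 (1.41 ± 0.11) and was at sham level at day 3 (-0.14). Bmp4, made by newly forming oligodendrocytes, rose by 1.78 ± 0.34, and Enpp6, another gene of that stage, by 0.37 ± 0.16 after -0.97 at day 3. Pdgfra, the receptor that defines precursors, rose by 0.54 ± 0.18, and another probe set of it did not pass.

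Neuronal genes were lower nearly throughout. Of 23 tested neuron genes 21 were lower, with a median of -0.87, and Gap43 and Reln did not pass. Sncb, beta-synuclein, read 7.64, 7.33, 7.41 and 7.70 in sham cord and 6.42, 6.70, 6.39 and 6.56 at day 7, a 2-fold fall (-1.0 ± 0.14). Cplx2, which clamps synaptic vesicle fusion, fell by 1.20 ± 0.22, Dnm1, the dynamin of synaptic vesicles, by 0.99 ± 0.20, Syp, synaptophysin, by 0.81 ± 0.16 and Snap25 by 0.55 ± 0.15, the last to 14.57, 14.82, 14.60 and 14.62. Day 7 replicate 2 was the highest of its group for each of these 5 genes, and no day 7 array reached a sham array. The list differed little from day 3, with 1 member higher at day 7, Reln, and a median of 0.12.

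Ion channel genes fell by about as much. Of 25 tested potassium channel genes 19 were lower and 1 higher, with a median of -0.84. Kcnd3, a channel of the A-type current, read 9.16, 9.47, 9.24 and 9.46 in sham cord and 7.96, 7.99, 8.09 and 8.12 at day 7, a 2.45-fold fall. Kcna4 fell by 1.74 ± 0.28, to day 7 arrays between 4.38 and 5.84, and Kcnc1, the channel of fast-spiking neurons, by 1.16 ± 0.24. The rise was that of Kcnn4, a calcium-activated channel of immune cells (1.81 ± 0.39). Of 22 tested sodium and calcium channel genes 19 were lower, with a median of -0.89. Scn8a, the sodium channel of nodes of Ranvier, read 11.88, 11.96, 11.81 and 11.65 against 10.73, 10.88, 10.64 and 10.77 (-1.07 ± 0.20), and Cacna1a, the P/Q-type calcium channel, fell by 0.75 ± 0.12, further than at day 3.

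The same held for receptors of fast transmission. Of 16 tested glutamate receptor and postsynaptic genes 15 were lower, with a median of -0.88. Grin2b fell by 1.51 ± 0.33, Grik1 by 1.36 ± 0.27 and Dlg4, the postsynaptic scaffold PSD-95, by 0.84 ± 0.17, while Grin2c, which astrocytes also express, went from 4.81, 4.61, 4.48 and 3.87 to background. Of 19 tested genes of inhibitory transmission 16 were lower, with a median of -0.94. Glra3, a glycine receptor subunit of the dorsal horn, read 9.18, 9.39, 9.13 and 9.21 in sham cord and 7.62, 7.74, 7.67 and 7.69 at day 7 (-1.55 ± 0.38), Slc32a1, the vesicular transporter of GABA and glycine, fell by 0.97 ± 0.22, and Gphn, gephyrin, by 0.71 ± 0.12. Slc12a5, the chloride exporter KCC2 that makes GABA inhibitory, read 12.91, 12.97, 13.04 and 12.87 against 11.98, 12.05, 11.89 and 12.09 (-0.94 ± 0.22), whereas Slc12a2, the importer NKCC1, differed by 0.08 ± 0.06. Without the 3 arrays with muscle RNA 10 of the 16 falls passed.

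**Figure D4:**
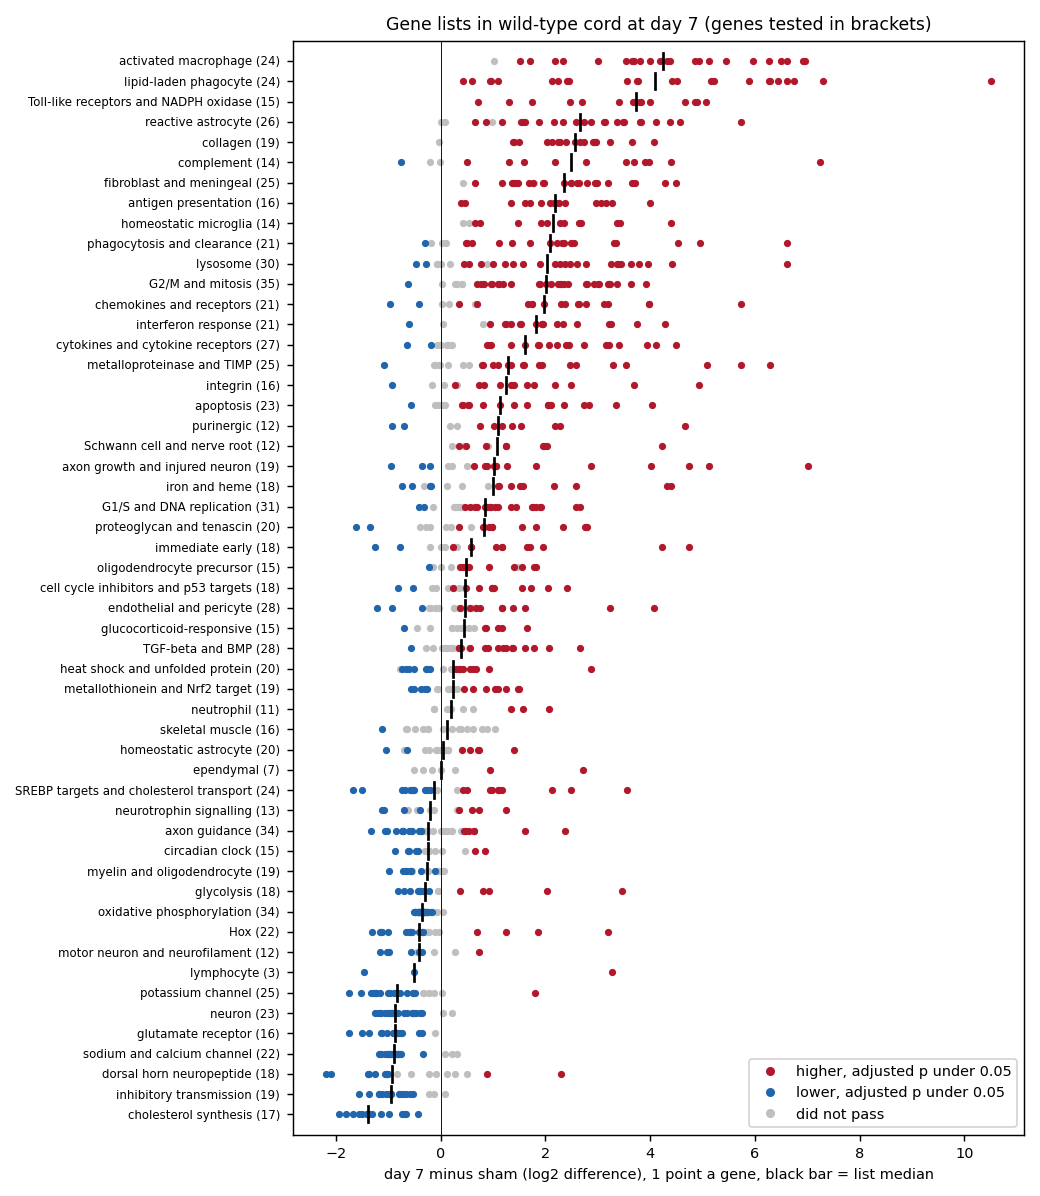
Each point is a tested gene of the list named at the left, with its log2 difference day 7 minus sham; red and blue points passed as higher and lower, grey ones did not pass, and the black bar is the list median. The medians run from 4.25 (activated macrophage) to -1.38 (cholesterol synthesis). The neuron, ion channel, glutamate receptor, inhibitory transmission and dorsal horn neuropeptide lists lie together near -0.9, and the motor neuron and neurofilament list lies at -0.42.

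The 20 largest falls held several genes known from neurons. Cpne4, a copine, read 6.18, 6.21, 6.44 and 6.69 in sham cord and 3.25, 4.0, 4.11 and 4.01 at day 7, at least 5.1-fold lower, with day 7 replicate 1 apart from the others. Nmu, neuromedin U, read 6.59, 6.37, 6.98 and 6.85 against 4.58, 4.4, 4.51 and 4.52 (-2.19 ± 0.35), Nwd2 fell by 2.26 ± 0.28 and Tac2, neurokinin B, by 2.10 ± 0.72. Hes5, a target of Notch in neural progenitors and astrocytes, went from 5.20, 4.90, 5.55 and 4.98 to background, at least 2.23-fold lower, and Dao, the D-amino acid oxidase of astrocytes, from 5.81, 5.65, 5.32 and 6.12 to background, at least 3.3-fold lower. Hoxd1 and Smyd1, a muscle gene, were also among the 20 largest falls, at -2.26 ± 0.17 and -2.0 ± 0.57. None of these 8 genes passed between days 7 and 3 except Dao, which was 0.62 ± 0.18 higher at day 7.

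Neuropeptides of the dorsal horn were divided, with 9 of 18 tested lower and 2 higher. Sst, somatostatin, fell by 1.36 ± 0.34, Pnoc, prepronociceptin, by 1.38 ± 0.29 and Npy1r, a receptor of neuropeptide Y, by 1.04 ± 0.14, while Tac1, Penk and Pdyn did not pass. Crh, corticotropin-releasing hormone, went from 6.82, 6.16, 6.66 and 6.31 up to 8.94, 8.89, 8.97 and 8.33 (2.30 ± 0.29), and Gal, galanin, known to rise in injured neurons, by 0.88 ± 0.20. Without the 3 arrays with muscle RNA 4 of the 9 falls passed and 1 of the 2 rises, that of Crh (1.98), while Gal did not (0.65). Among 12 tested motor neuron and neurofilament genes 6 were lower. Ina, alpha-internexin, fell by 1.16 ± 0.18, Ache, acetylcholinesterase, by 0.98 ± 0.26 and the neurofilament genes Nefh and Nefl by 0.56 ± 0.17 and 0.36 ± 0.10. Ret, the signalling receptor of GDNF, went up from 9.88, 9.79, 9.63 and 9.69 to 10.53, 10.30, 10.67 and 10.48 (0.74 ± 0.12).

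Genes of injured and regrowing neurons rose against this background. Of 19 tested 13 were higher and 3 lower, with a median of 1.02. Sprr1a, a protein that injured neurons induce, read 2.66, 2.66, 2.25 and 2.55 in sham cord and 9.67, 9.08, 10.10 and 9.34 at day 7, at least 46.8-fold higher. Atf3, a transcription factor of injured neurons, read 2.54, 2.27, 3.70 and 3.41 against 7.80, 7.36, 7.82 and 7.94, at least 13.2-fold higher, and Jun, its partner, rose by 1.06 ± 0.12. Ecel1, an endopeptidase induced in injured neurons, rose by 1.83 ± 0.20 and was higher than at day 3, whereas Tubb6, a tubulin, rose by 4.01 ± 0.31 and was lower than at day 3. Several of these genes are also made by other cells of a lesion, Arg1 by macrophages and Hspb1 by astrocytes.

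Of 34 tested genes of axon guidance 13 were lower, 7 higher and 14 did not pass, with a median of -0.24. Over all genes tested 33.3% were lower and 25.8% higher, so the list as a whole lay near these shares. The falls held Slit1 (-1.32 ± 0.25) and the receptor genes Robo2 (-1.07 ± 0.17), Dcc (-1.02 ± 0.20) and Unc5b (-0.86 ± 0.12), and the rises held Plxnd1 (2.38 ± 0.25) and Nrp1 (1.62 ± 0.19), receptors that vessels and macrophages also carry. The inhibitor gene Rtn4, Nogo, differed by 0.02 ± 0.04. Without the 3 arrays with muscle RNA 4 of the 7 rises passed.

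In the neurotrophin system 4 of 13 tested genes were higher and 4 lower, with a median of -0.20, near the 25.8% and 33.3% of all genes tested. Of the 4 rises 2 passed without day 7 replicate 4, and 2 without the 3 arrays with muscle RNA. The probe set used for Ntrk2, the BDNF receptor trkB, read 11.09, 11.14, 11.09 and 11.09 in sham cord and 9.95, 10.16, 9.93 and 9.99 at day 7 (-1.09 ± 0.21, adjusted p = 7.32e-05 in limma). The probe sets of this gene did not agree. Of the other 5 above the filter 3 passed as lower, at -0.90 ± 0.19, -1.23 ± 0.22 and -0.38 ± 0.11, and the pair that reads low in KO cord was at 0.25 ± 0.66 and 0.02 ± 0.67, with means of 10.39 ± 0.21 and 9.72 ± 0.11 in sham cord and 10.64 ± 0.16 and 9.74 ± 0.12 at day 7 (SD, n = 4). Bdnf read 6.72, 6.67, 6.89 and 6.98 against 6.01, 6.73, 6.40 and 6.28, groups that overlap and do not pass (-0.46 ± 0.29, adjusted p = 0.173 in limma). Ngfr, the p75 receptor, which Schwann cells also carry, rose by 1.25 ± 0.42. Gfra1, a GDNF coreceptor, rose by 0.60 ± 0.09 and Gfra2 fell by 0.69 ± 0.15.

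Endothelial and pericyte genes had mostly gone back towards sham levels. Of 28 tested 10 were higher, 3 lower and 15 did not pass, with a median of 0.47 after 1.07 at day 3, and 17 were lower at day 7 than at day 3. The count of rises was 6 without the 3 arrays with muscle RNA and 16 without day 7 replicate 2, which had the lowest mean of the list. Vwf, von Willebrand factor, read 3.27, 3.72, 5.05 and 4.94 in sham cord and 7.90, 6.40, 6.73 and 8.86 at day 7, at least 7.85-fold higher and 2.18 ± 0.51 below day 3. Icam1, an adhesion molecule for leukocytes, kept its rise (4.07 ± 0.27), which from background means at least 7.02-fold. Pecam1, Kdr and Flt1 of endothelium did not pass against sham and were lower than at day 3. Vegfa, the growth factor of vessels, fell by 0.92 ± 0.17 and Apln, apelin, went from 7.69, 7.57, 7.53 and 7.70 to 6.46, 6.65, 6.18 and 6.32 (-1.22 ± 0.12).

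Genes of cell division were above sham but below their level at day 3. Of 35 tested genes of G2 and mitosis 29 were higher than sham, with a median of 2.02 (1.19 with values under 4 set to 4), and 34 were lower than at day 3, when the median was 4.11. Cdk1, the mitotic kinase, read 3.74, 4.07, 3.54 and 3.65 in sham cord and 7.42, 6.85, 6.76 and 7.41 at day 7, at least 8.52-fold higher and 1.70 ± 0.21 below day 3. Top2a rose by 3.64 ± 0.28 and Mki67, the proliferation marker Ki-67, from 5.18, 6.68, 4.20 and 5.73 to 8.72, 8.04, 8.88 and 9.04. Anln, which myelinating oligodendrocytes also express, was lower than sham (-0.63 ± 0.10). Of 31 tested genes of G1, S phase and DNA replication 20 were higher than sham and 2 lower, with a median of 0.84 (0.70 with values under 4 set to 4), and 23 were lower than at day 3. Mcm3, of the replicative helicase, rose by 2.67 ± 0.26, Rrm2 by 2.58 ± 0.29 and Ccnd1, cyclin D1, by 1.04 ± 0.13. Of the inhibitors of division and p53 targets 10 of 18 tested were higher, among them Cdkn2c (2.41 ± 0.20) and Rb1 (0.99 ± 0.07), while Cdkn2d fell by 0.52 ± 0.07.

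**Figure D5:**
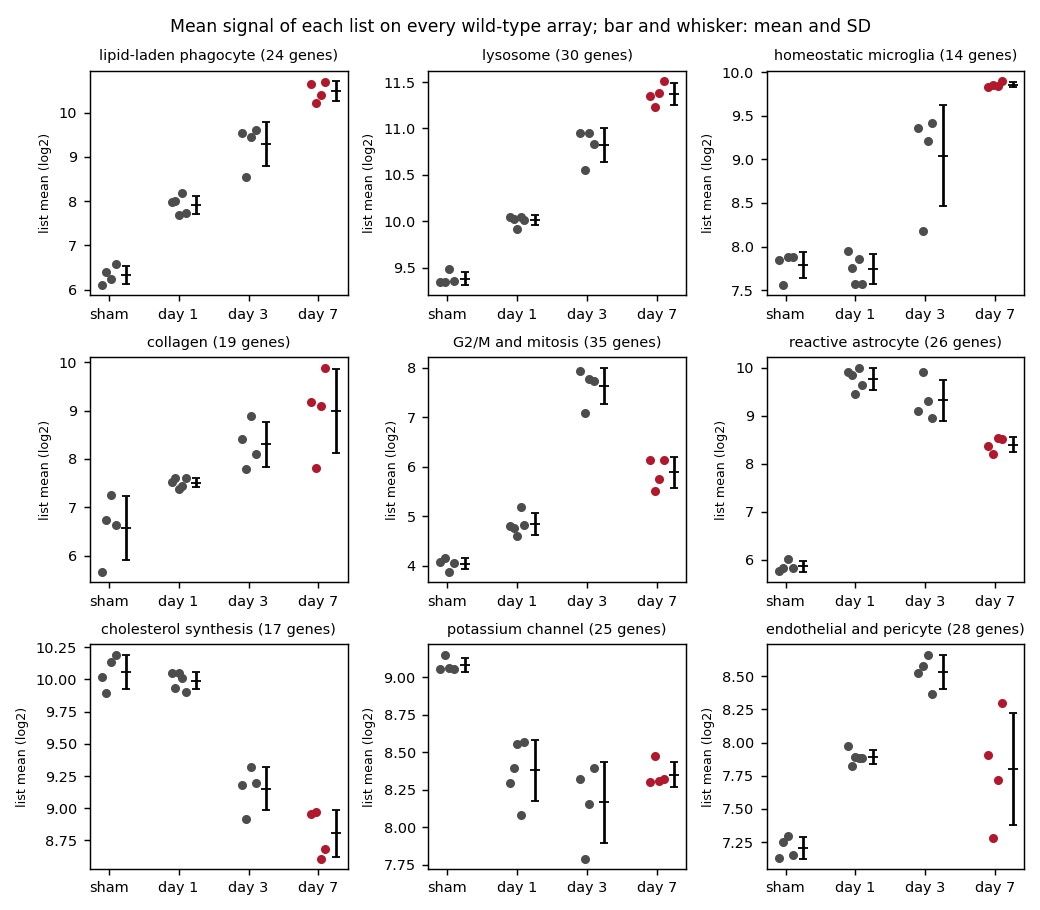
Each point is the mean log2 signal of a gene list on 1 WT array of sham (4), day 1 (5), day 3 (4) and day 7 (4), with the group mean and SD as bar and whisker. Lipid-laden phagocyte, lysosome and microglia lists are highest at day 7, the G2/M list peaks at day 3, reactive astrocyte genes have their highest mean at day 1, and day 7 replicate 2 is the low array of the collagen and endothelial lists.

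Energy genes fell by small and even amounts. Of 34 tested genes of oxidative phosphorylation 32 were lower, with a median of -0.36, and the 2 that did not pass were Sdhb and Sdhc. Atp5b, of the ATP synthase, read 13.85, 13.83, 13.79 and 13.82 in sham cord and 13.34, 13.43, 13.30 and 13.28 at day 7 (-0.48 ± 0.05), and Ndufb8 of complex I fell by 0.51 ± 0.06. Scaling each array by its median or by quantiles moves the median of all genes from -0.06 to -0.10 and -0.15, and the median of the list becomes -0.40 and -0.34. Of 18 tested glycolysis genes 9 were lower and 5 higher. Hk2, an inducible hexokinase, read 4.4, 5.04, 4.75 and 4.85 in sham cord and 8.10, 8.13, 8.36 and 8.27 at day 7 (3.46 ± 0.31), while Slc2a3, the glucose transporter of neurons, fell by 0.81 ± 0.11. Slc16a1, a lactate transporter, rose by 0.80 ± 0.08.

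Of 18 tested immediate early genes 11 were higher and 2 lower. Myc rose by 1.95 ± 0.24, Fosl2 by 1.71 ± 0.20 and Fos by 1.17 ± 0.18, all below day 3. The falls were those of Egr3 and Arc, at -1.25 ± 0.30 and -0.77 ± 0.19, genes that neuronal activity drives. Of 23 tested apoptosis and inflammasome genes 17 were higher and 1 lower, with a median of 1.13 (0.81 with values under 4 set to 4). Pycard, the inflammasome adaptor, read 6.19, 5.24, 5.95 and 6.15 in sham cord and 10.05, 9.71, 9.99 and 9.93 at day 7 (4.03 ± 0.17), Casp8 rose by 3.34 ± 0.20 and Casp1 by 2.74 ± 0.15, and Bcl2, Xiap and Casp9 did not pass. Of 12 tested purinergic genes 8 were higher and 2 lower. P2ry6, the UDP receptor that triggers phagocytosis in microglia, read 2.59, 2.84, 3.52 and 2.95 against 7.75, 7.42, 7.61 and 7.77, at least 12.5-fold higher, and P2rx4 and P2rx7, the ATP-gated channels of microglia, rose by 1.53 ± 0.13 and 1.17 ± 0.17. Of 21 tested genes of phagocytosis and clearance 17 were higher, among them Stab1 (4.95 ± 0.25), Mertk (2.36 ± 0.14), Axl (1.71 ± 0.12) and Pros1, a bridge to dying cells (2.23 ± 0.12), whereas Tyro3, a relative of Axl and Mertk, did not pass.

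Stress genes moved in both directions. Of 20 tested heat shock and unfolded protein genes 9 were higher and 7 lower, with 3 and 4 that passed without the 3 arrays with muscle RNA, and Hspb1 had the only difference of at least 2-fold. Dnajb1 and Hsph1, which heat shock factor drives, fell by 0.60 ± 0.07 and 0.67 ± 0.14. Of 19 tested metallothionein and Nrf2 target genes 8 were higher and 5 lower, among them Nfe2l2, the Nrf2 gene itself (1.49 ± 0.20), Slc7a11 (1.47 ± 0.41), Gpx1 (1.25 ± 0.10), Mt2 (1.10 ± 0.08) and Slc39a14 (1.04 ± 0.16), and Gsta4 with the largest fall (-0.56 ± 0.10). Of 15 tested clock genes 5 were lower and 2 higher (Per1, 0.85 ± 0.25, and Bhlhe40, 0.66 ± 0.10), with a median of -0.25. Of 15 tested glucocorticoid-responsive genes 5 were higher and 1 lower, with Sgk1 at 1.64 ± 0.32 and Tsc22d3 at -0.69 ± 0.23. Over all genes tested 33.3% were lower and 25.8% higher, so the clock genes were lower no more often than genes at large.

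Markers of further cell types were read for what else the samples held. Of 12 tested Schwann cell and nerve root genes 9 were higher, with list means of 7.85, 6.61, 7.20 and 7.73 at day 7 against 5.90 to 6.06 in sham cord. Egr2, the transcription factor of myelinating Schwann cells, which macrophages can also express, read 3.63, 2.80, 3.45 and 3.84 in sham cord and 8.07, 7.23, 7.27 and 8.04 at day 7, at least 12.6-fold higher, and Pmp22, of peripheral myelin, rose by 1.24 ± 0.29. Of 11 tested neutrophil genes 3 were higher, Csf3r, Lcn2 and Mmp8, of which 1 passed without sham replicate 3 or 4, day 7 replicate 3 or all arrays with muscle RNA, and S100a8 and S100a9 did not pass (0.42 ± 0.63 and 0.19 ± 0.71). The means of this list ran from 6.17 to 8.0 in sham cord and from 6.57 to 9.43 at day 7, and day 7 replicate 3, an array with muscle RNA, was the highest. The red blood cell genes Slc4a1 and Alas2 did not pass. Of 7 tested ependymal genes 2 were higher, and of these Mia, which cartilage also makes, read 5.81, 5.71, 6.74 and 6.42 in sham cord, averaged 3.70 and 5.53 at days 1 and 3, and read 8.72, 9.2, 9.01 and 8.61 at day 7. The rises of the neutrophil and ependymal lists were near the share of all genes tested that were higher, 25.8%. The part of RNA from such cells in the other results was not tested.

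Between days 3 and 7 the design allows a direct test within WT cord. At day 7 1323 genes were higher and 1442 lower than at day 3 (23.1% of those tested, limma with Benjamini-Hochberg adjustment), and without day 3 replicate 2, which stood apart from its group on the second principal component (-31.3 against 3.9 to 10.7), 846 and 1073. With only the arrays of these 2 groups in the fit 490 and 539 passed. Both days were set against the same sham arrays. Of the genes higher than sham at day 7, 624 were higher than at day 3, 522 were lower and 1951 did not pass between the days. Of those lower than sham, 294 were lower than at day 3, 211 were higher and 3486 did not pass. Only 31 genes were at least 2-fold over sham and at least 4-fold over day 3 at day 7.

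Several of the largest rises from day 3 belonged to transcripts with a mean near log2 4 or under it at that day. Besides Atp6v0d2, Mmp12 and Mcoln3 these were Hpse, heparanase, which averaged 2.24, 2.25 and 3.68 in sham cord and at days 1 and 3 and read 6.96, 7.43, 7.08 and 8.01 at day 7, and Rassf10, at 3.56, 3.40 and 3.01 before 6.34, 6.49, 6.18 and 5.75. Kcne1l rose by 3.53 ± 0.28 and C1qtnf3, an adipokine-like protein, by 3.29 ± 0.63 over day 3. The day 7 arrays lay above every sham array in each of these 7 genes.

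The largest falls from day 3 were those of Arg1 and Hmox1, followed by Ccl7, Ccl2 and genes of mitosis and inflammation. Kif20a, a mitotic kinesin, averaged 7.08 at day 3 and 3.71 at day 7, and Aurka, a mitotic kinase, 6.02 and 3.28, both back under log2 4. Lrg1, a glycoprotein of inflamed vessels, averaged 7.59 and 7.72 at days 1 and 3 and 4.45 at day 7, and Clcf1, a cytokine of the gp130 family, 8.26, 7.51 and 4.66. Crym went from 8.37 at day 3 to 5.67 at day 7, still above its sham mean of 2.20. Against day 1, with 5111 genes (42.6%) that passed, the largest falls were those of the attractants and mediators of the first day. Cxcl3 averaged 8.64 at day 1 and 2.23 at day 7, Il6 6.30 and 2.19, and Ptgs2, the inducible cyclooxygenase, 8.68 and 4.92. Cxcl3 and Il6 were at background on all 4 day 7 arrays.

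The same comparison in KO cord used other sham arrays. At day 7 2824 genes were higher (23.5%) and 3716 lower (31%) than in KO sham cord, together 54.5%. Gpnmb rose by 10.10 ± 0.51 in KO cord against 10.51 ± 0.51 in WT cord, Atp6v0d2 by 5.46 ± 0.35 against 5.89 ± 0.35, and Apoe by 2.08 ± 0.16 against 2.12 ± 0.16. Fdps fell by 1.72 ± 0.14 against 1.94 ± 0.14. The difference between the responses of the 2 genotypes was tested for every gene and passed for 1 of 11993 (0.00834%), Cnmd, a cartilage protein also known as chondromodulin. Cnmd read 3.55, 3.97, 3.68 and 3.74 in WT sham cord and 5.41, 4.52, 4.66 and 4.67 at WT day 7, and its means in KO cord were 4.61 ± 0.63 and 3.76 ± 0.29 (SD, n = 4), so that the responses differed by -1.93 ± 0.31 (adjusted p = 0.00935 in limma). The library labelled KO sham replicate 2 reads the probe sets of Ntrk2 that are low in other KO arrays at 9.46 and 8.59, which goes against its label. It enters this test and the estimate of the spread that all comparisons share. With only the arrays of these 4 groups in the fit 57 genes passed, and with array weights 56. A difference that did not pass is not shown to be absent.

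At day 7 itself 4 genes passed between KO and WT cord (0.0334%), a count that was 2 without WT day 1 replicate 2, 9 without KO day 3 replicate 4, 2 without the 3 arrays with muscle RNA, 21 with only these 2 groups in the fit and 233 with array weights. Cd59a and Dapk1 (0.0167%) were higher in KO cord, by 0.91 ± 0.11 and 1.00 ± 0.14, and both were at the same level in WT sham and WT day 7 cord. Mcoln3 and Capn6 (0.0167%) were lower in KO cord, by 0.91 ± 0.17 and 0.71 ± 0.14. Mcoln3 rose in both genotypes, by 4.56 ± 0.17 in WT and 3.64 ± 0.17 in KO cord, and the difference between these rises, -0.92 ± 0.24, did not pass (adjusted p = 0.537 in limma).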

How the data were processed

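Total RNA of mouse spinal cord was read on Affymetrix arrays. The deposited values are log2 signals of 45101 probe sets, made by the authors with GCRMA per the submitters' processing notes (version not given in the sources used here), and lie between 2.17 and 15.9. They were used as deposited, and the groups were taken from the sample titles. Of the probe sets 34945 carry 1 gene symbol, 932 several, 9160 none and 64 are controls. Where a gene has several probe sets, the brightest on average of the 34 arrays stands for it. Of 18193 genes 11993 exceeded log2 4 on 4 arrays or more and entered the tests. A gene at background on all sham arrays could enter only through injured arrays. Counts of rises among tested genes therefore leave out genes that stayed low throughout. Array medians of the 8 arrays compared lay between 4.143 and 4.322.

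One limma fit (version 3.58.1, R 4.3.3; lmFit and eBayes) held 8 group means and all 34 arrays, which share 1 estimate of the spread. P-values were adjusted by Benjamini-Hochberg over all genes tested, with a threshold of 0.05. The same fit gave day 7 against days 3 and 1, the KO response and the difference between the responses. The fit was tested on simulated data.

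The members, the 54 gene lists (1059 tested of 1295 entries) and the promoter motifs were chosen with earlier results of these data known. Genes were named by a rule: the 20 largest rises and 20 largest falls that passed without overlap; from each list at most 6 members that passed, by p, or the member of smallest p where none did; the 10 largest rises and falls against days 3 and 1; up to 10 passing genes, or the 3 smallest p, for the comparisons of genotypes; and Ntrk2, Bdnf, Gfap, Aif1, Mbp, Snap25, Cdk1, Mki67, Col1a1, Cd3e and Acta1. This names 347 genes, and others in the text were chosen after their values were seen.

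Alternatives were a fit of the compared groups alone, other scaling, filters, probe set choices, trend and robust eBayes, array weights, each array left out in turn and the replicate number as a block. Same-numbered samples of the 2 groups deviated with correlations of -0.072, -0.067, -0.332 and -0.187. These gave no sign that the numbers pair the samples, but 1 correlation for each number cannot exclude it. Of the 347 named genes 130 have another probe set above the filter. Among these, 127 passed, of which 1 has another probe set that passed in the opposite direction and 16 one that did not pass.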

Additional observations from a re-analysis of the deposited data

Results flagged for a closer look

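In 19 of 188 groups of 4 arrays checked, 1 array lay far from the others for its list mean or gene, by Dixon's criterion, which chance meets in about 1 group in 20. Among list means of sham arrays, replicate 3 was high for the lysosome (9.485 against 9.343 to 9.362), lymphocyte (7.858 against 7.763 to 7.779), immediate early (6.364 against 6.171 to 6.185) and circadian clock lists (8.52 against 8.445 to 8.453). Sham replicate 2 was low for the homeostatic microglia list (7.562 against 7.842 to 7.88) and high for the potassium channel list (9.151 against 9.055 to 9.061), and sham replicate 1 was low for the Schwann cell and nerve root list (5.904 against 6.055 to 6.063). At day 7, replicate 2 was low for the chemokines and receptors list (6.314 against 6.712 to 6.763) and high for the potassium channel list (8.475 against 8.303 to 8.321).

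Among single genes, sham replicate 4 stood apart for Cd84 (4.308, the others all at 4.654), Atp6v0d2 (2.462 against 2.226 to 2.25), Trhde, an ectoenzyme that degrades thyrotropin-releasing hormone (5.24 against 4.692 to 4.751), and Trpc5, a cation channel of neurons (4.031 against 5.141 to 5.352). Sham replicate 3 was low for Ch25h (2.277 against 2.602 to 2.647). At day 7, replicate 1 was low for Cpne4 (3.25 against 3.995 to 4.106) and high for Slc35d3 (6.617 against 5.959 to 6.043), replicate 2 was high for Trhde (3.239 against 2.775 to 2.818) and Trmt9b (4.21 against 3.988 to 4.002), and replicate 3 was high for Hes5 (3.208 against 3.061 to 3.063). The values of Atp6v0d2, Ch25h and Hes5 named here lie under log2 4, at background. So do those of Trhde at day 7 and that of Cpne4 on day 7 replicate 1. The other day 7 values of Cpne4 and those of Trmt9b lie near log2 4.

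Responses that differed by a test of the difference itself were that of Cnmd between KO and WT cord (-1.93), those of 2765 genes between days 7 and 3, and those of 5111 genes between days 7 and 1. The last 2 counts are of WT cord, where both times are set against the same sham arrays.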

How the results depend on the processing

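Of 319 named genes that passed between day 7 and sham, 301 kept their call and direction in every fit that held them: 283 in all 46 alternatives, of which 34 leave out 1 array each, and 18 that a filter at log2 6 or the choice of the probe set with the largest variance left untested. The named genes were picked largely for large or clear differences in these same data, so this count does not speak for all genes that passed. Leaving out arrays in turn gave 2863 to 3286 higher and 3609 to 4282 lower genes, 1207 to 1372 and 446 to 600 at least 2-fold, 846 to 1549 higher and 1073 to 1623 lower than day 3, 2174 to 2711 higher and 2208 to 2924 lower than day 1, 1 to 2 genes whose response differed between genotypes and 2 to 9 that differed between KO and WT cord at day 7. With only the groups compared in the fit, 490 genes were higher and 539 lower than day 3, and the comparisons of genotypes gave 57 and 21. The count of differing responses was 2 with quantile scaling, 2 with values under log2 4 set to 4, 4 with no filter, 0 with a filter at log2 6 and 56 with array weights. The KO against WT count was 9 with no filter, 2 with trend and robust eBayes and 233 with array weights. The cause was not tested. Without the 3 arrays with skeletal muscle RNA among the 8 compared, an alternative chosen after seeing the data, these counts were 2 and 2. In that fit 5346 genes passed between day 7 and sham. Of the 7088 that passed with all arrays, 5292 passed in it in the same direction. Muscle RNA on the KO sham arrays, which enter the count of differing responses, was not removed by it. With the probe set of largest variance Ntrk2 was at 0.02 and Slc48a1 at 0.52. The difference of Acta1 turned to -0.37 without day 7 replicate 3 to -0.29 without sham replicate 1 or 3 and was 1.94 without sham replicate 2, and that of Slc4a1 to -0.34 without day 7 replicate 3 and -0.38 without sham replicate 3 and was 0.72 without sham replicate 2; neither passed in any of these.

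With the replicate number as a block 7045 genes passed between day 7 and sham, of which 6977 passed in the same direction without it, and 2 genes differed between KO and WT cord at day 7. The deviations of same-numbered samples gave no sign of pairing by number, which they cannot exclude. Signals under log2 4 limit the folds of genes that start at background, and 4 arrays a group limit all the rest.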
